A study of Mus musculus with 4 samples.

Results

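Dlx1, Dlx2, Dlx5, Dlx6, Lhx6, Nxph1, Erbb4 and Maf, 8 genes that act in the specification, migration and wiring of inhibitory interneurons, were examined in the hippocampus of newborn mice. Every probe set whose single annotated gene symbol is in this list was taken, which gave 16 of 45037 probe sets on the array. Dlx1, Dlx2, Dlx5, Dlx6 and Erbb4 had 1 probe set each, Lhx6 had 2, Nxph1 had 3 and Maf had 6. Hippocampi were dissected at postnatal day 2 from mice labelled ZBTB20 knockout and from littermates labelled wildtype, which served as controls. The question was which genes depend on the zinc finger transcription factor ZBTB20 during hippocampal development. Total RNA went onto 4 Affymetrix arrays, 2 per label, and the labels number both arrays of a group 1 and 2. The strain, the sex, the form of the knockout allele and the number of animals behind an array are not stated in the labels, so the spread between arrays may be partly technical. The array labelled knockout was compared with the array labelled control of the same number, called pair 1 and pair 2 below.

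Hippocampal interneurons are not born in the hippocampus. They arise in the ganglionic eminences of the ventral forebrain, where the paired homeobox genes Dlx1 and Dlx2, and after them Dlx5 and Dlx6, drive the GABAergic programme and release newborn cells into migration. In cells of the medial eminence the LIM-homeodomain factor Lhx6 then sets the somatostatin and parvalbumin lineages, in which the bZIP factor Maf acts later. Migrating and maturing interneurons carry the neuregulin receptor Erbb4, and medial eminence-derived cells secrete Nxph1, a ligand of alpha-neurexins. Dlx genes are also expressed in the striatal lineage, and Maf is also found in microglia and macrophages.

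The arrays came on different scales, and those of pair 1 carried liver transcripts. The trimmed mean signal was 497 on both pair 1 arrays and 158 and 156 on the pair 2 arrays labelled control and knockout. The Spearman correlation over probe sets was 0.926 within pair 1 and 0.986 within pair 2. The liver product albumin (Alb) reached 39309 (labelled control) and 15195 (labelled knockout) in pair 1, against 42.2 and 45.2 in pair 2. Xist, which marks female tissue, was at 2994 and 4093 in pair 1 and at 36.3 and 39.9 in pair 2. The Y-linked gene Eif2s3y was at 305 and 10.7 in pair 1 and at 714 and 830.1 in pair 2, and Kdm5d, also Y-linked, at 130.1 and 2.3 and at 105 and 119.7. Of the 3 measured Y-linked genes these 2 were lower on the array labelled knockout in pair 1, while Uty was at 37.1 and 75.9. The part of sex in the results was not tested. None of the 9 Zbtb20 probe sets was lower on the array labelled knockout in both pairs (3 were lower in pair 1 and 2 in pair 2), so directions follow the labels as given. The labels do not tell which exons were deleted or whether these probe sets cover them. Of 11 measured markers of hippocampal and cortical glutamatergic neurons, the lowest signal was taken on each array, not always of the same gene. These minima were 178.8 and 242.9 in pair 1 and 79.62 and 51.92 in pair 2, control first. Differences and folds below are on the scale log2(signal + 32.56), labelled knockout minus labelled control. The constant was the 20th percentile of all values and understates fold changes of dim genes. Within a pair there is 1 array per label, so these differences have no test.

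In pair 2 all 4 Dlx genes were lower on the array labelled knockout, as were 48.4% of all genes. Dlx1, Dlx2 and Dlx5 were over 1.5-fold lower there, with log2 differences of -1.03, -0.59 and -0.82, while Dlx6 was at -0.26. Of all 18193 genes, each taken by its probe set with the highest mean over the 4 arrays, 1.55% were over 1.5-fold lower in pair 2, against 3 of the 8 genes examined here. Lhx6, Nxph1 and Maf lay between -0.10 and 0.12 in that pair. Erbb4 was at -0.09, but its signals of 17.2 and 14.2 were below the added constant, which draws such differences towards 0. With a floor of 1 in place of the constant Erbb4 was at -0.28. In pair 1 the Dlx genes did not share a direction, with Dlx1 at 0.33 and Dlx5 at 0.37, and Dlx2 at -0.18 and Dlx6 at -1.19, the Dlx value farthest from 0 in either pair. Across the 4 arrays limma called 0 of the 16 probe sets, and 0% of all 45037. In whole tissue, fewer cells that express a gene and less RNA per cell cannot be told apart.

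**Figure D1:**
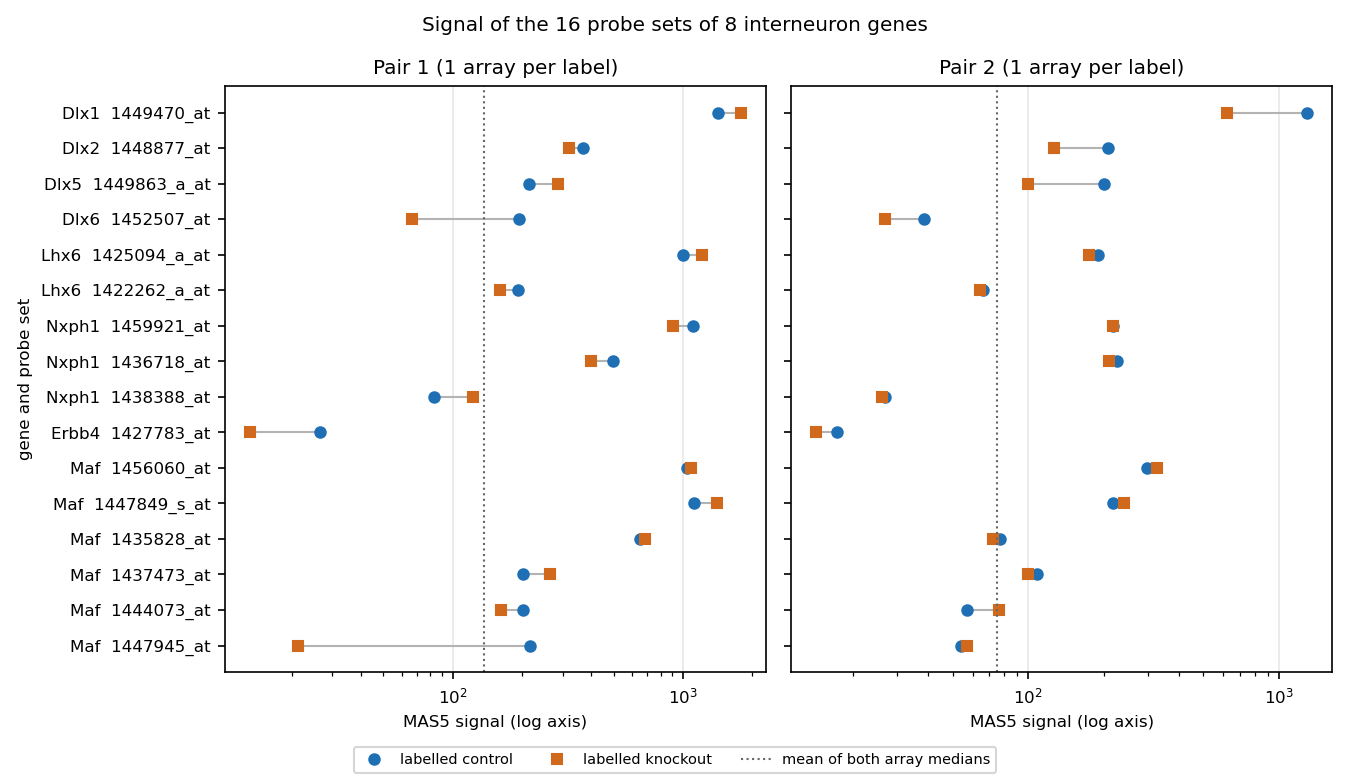
MAS5 signal (log axis) of the 16 probe sets on the arrays labelled control (circles) and knockout (squares), with pair 1 on the left and pair 2 on the right; the dotted line is the mean of both array medians. In pair 2 the Dlx1 signal is 1298 on the array labelled control and 619 on that labelled knockout, while the symbols of Lhx6, Nxph1 and most Maf probe sets lie close together.

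Dlx1, a homeodomain factor needed for the survival and identity of several interneuron subtypes, was bright on every array. Its signal was 1423 (labelled control) and 1795 (labelled knockout) in pair 1, and 1298 and 619 in pair 2. The array labelled knockout was thus the brighter of pair 1 and the dimmer of pair 2, with differences of 0.33 and -1.03, and the groups overlapped. Among the 27022 probe sets whose mean exceeded the 40th percentile, 0.259% lay at or below the Dlx1 difference in pair 2, and 83.8% did so in pair 1. On the scale with the added constant Dlx1 was the single member over 2-fold lower in pair 2, where 0.291% of all genes were. Without the constant, Dlx5 was over 2-fold lower there as well, with a signal ratio of knockout to control of 0.497.

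Dlx2, the neighbour of Dlx1 and its partner in committing ventral progenitors to the GABAergic fate, was lower on the array labelled knockout in both pairs. Signals were 367 (control) and 319 (knockout) in pair 1 and 207 and 127 in pair 2. The differences were -0.18 and -0.59. The groups overlapped, since both pair 1 signals were above both pair 2 signals. In the RefSeq gene table (mouse assembly GRCm38.p6) Dlx1 and Dlx2 lie side by side on chromosome 2 with only the antisense gene Dlx1as listed between them. The probe set of Dlx1as had signals of 776 and 583 in pair 1 and 127 and 117 in pair 2. Its differences were -0.39 and -0.10, so in pair 2 this transcript was near the Lhx6 value and not near those of its flanking coding genes.

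The start regions of Dlx1 and Dlx2 are shown because both genes were over 1.5-fold lower in pair 2, beside those of Lhx6 and Nxph1, which were not. The RefSeq table of start regions (GRCm38.p6) held 5 of the 8 genes. Each sequence runs 5′ to 3′ on the gene's strand from 250 bases before to 50 bases after the annotated start, with every CG dinucleotide in capitals; for Lhx6 the first-listed of 3 starts is given.
Dlx1 promoter, chr2:71529195-71529494, + strand: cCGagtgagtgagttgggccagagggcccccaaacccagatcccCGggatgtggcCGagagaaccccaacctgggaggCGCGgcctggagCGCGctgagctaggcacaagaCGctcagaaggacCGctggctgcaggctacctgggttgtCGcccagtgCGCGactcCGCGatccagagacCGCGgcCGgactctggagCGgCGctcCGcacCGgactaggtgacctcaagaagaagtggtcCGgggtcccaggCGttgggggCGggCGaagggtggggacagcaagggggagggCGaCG
Dlx2 promoter, chr2:71546705-71547004, - strand: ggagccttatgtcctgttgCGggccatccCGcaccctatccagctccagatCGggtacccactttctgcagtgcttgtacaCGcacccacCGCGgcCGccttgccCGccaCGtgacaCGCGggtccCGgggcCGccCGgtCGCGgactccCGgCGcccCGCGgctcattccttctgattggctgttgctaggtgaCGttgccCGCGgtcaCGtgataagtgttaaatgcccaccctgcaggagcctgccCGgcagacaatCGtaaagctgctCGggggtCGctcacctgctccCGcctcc
Lhx6 promoter, chr2:36105359-36105658, - strand: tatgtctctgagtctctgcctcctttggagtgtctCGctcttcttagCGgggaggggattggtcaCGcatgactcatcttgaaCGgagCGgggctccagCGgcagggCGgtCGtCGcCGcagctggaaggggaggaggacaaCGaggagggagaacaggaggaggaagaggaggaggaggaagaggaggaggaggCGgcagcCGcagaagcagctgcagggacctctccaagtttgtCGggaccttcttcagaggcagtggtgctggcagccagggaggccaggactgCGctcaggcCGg
Nxph1 promoter, chr6:8949769-8950068, + strand: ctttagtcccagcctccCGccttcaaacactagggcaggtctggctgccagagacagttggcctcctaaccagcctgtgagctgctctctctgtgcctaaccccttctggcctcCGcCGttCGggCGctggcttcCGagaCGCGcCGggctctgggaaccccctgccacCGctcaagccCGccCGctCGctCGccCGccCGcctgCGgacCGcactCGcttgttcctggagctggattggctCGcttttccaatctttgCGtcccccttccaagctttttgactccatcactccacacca
These windows held 27 CG dinucleotides for Dlx1, 29 for Dlx2, 16 for Lhx6 and 21 for Nxph1, against a median of 7 over 32851 start regions of the same length. Fewer CG dinucleotides than in the Dlx1 and Dlx2 windows were found in 84.5% and 87.1% of all windows, and fewer than in those of Lhx6 and Nxph1 in 67.0% and 75.2%. The letters TAATT, the core bound by many homeodomain proteins, were searched on both strands. They were not in the windows of Dlx1, Dlx2, Nxph1 and Erbb4, were in 1 of the 3 Lhx6 windows, and occurred in 27.0% of all windows. Windows above the median CG count were thus found for Dlx1 and Dlx2, over 1.5-fold lower in pair 2, and for Lhx6 and Nxph1, which were not. The second-listed and third-listed Lhx6 starts held 17 and 11 CG dinucleotides. The Erbb4 window, not shown, held 17, and 68.6% of all windows held fewer. Dlx5, also over 1.5-fold lower, had no entry, so the comparison covers only the 5 genes with a start region.

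Dlx5, which acts downstream of Dlx1 and Dlx2 in postmitotic interneurons, had signals of 215 (control) and 287 (knockout) in pair 1. In pair 2 the signals were 200.4 and 99.7. The order of the labels was therefore opposite in the 2 pairs, as for Dlx1, with differences of 0.37 and -0.82. Of the brighter probe sets 0.566% lay at or below the Dlx5 difference in pair 2.

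Dlx6, the neighbour of Dlx5 on chromosome 6, was dimmer and followed another course. Signals were 194 and 66.8 in pair 1 and 38.6 and 26.8 in pair 2, so that both pair 2 values lay below the array medians of 73.8 and 75.8. The array labelled knockout was lower in both pairs, by -1.19 and -0.26 on the log2 scale. Dlx6 was the single gene among the 8 that was over 1.5-fold lower in pair 1 by its brightest probe set, where 14% of all genes were. RefSeq lists the non-coding genes Dlx6os1 and Dlx6os2 on either side of Dlx6. Dlx6os1, which overlaps the Dlx5 and Dlx6 locus, differed by 0.41 in pair 1 (signals 162 and 225) and by -0.20 in pair 2 (112 and 93.2). Dlx6os2 differed by -0.61 and -0.05. In pair 1 the locus thus held probe sets in both directions, with Dlx5 and Dlx6os1 higher and Dlx6 and Dlx6os2 lower on the array labelled knockout.

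**Figure D2:**
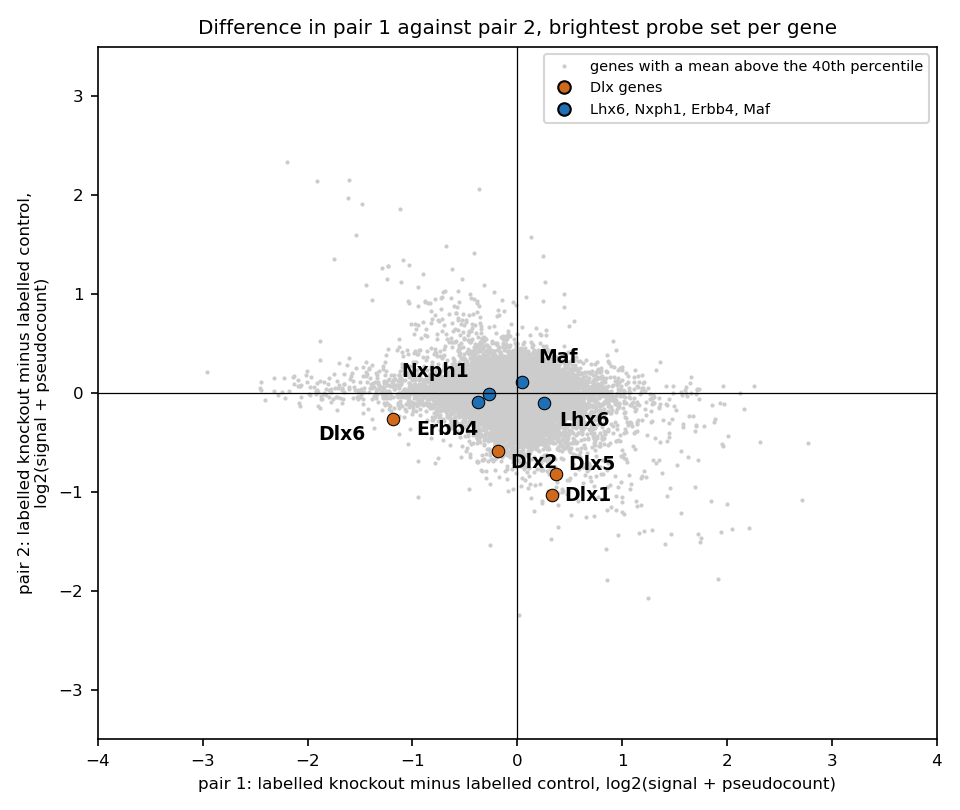
Difference between labels in pair 1 (horizontal) against pair 2 (vertical), log2(signal + 32.56), for the brightest probe set of each gene; grey points are the 12581 genes with a mean above the 40th percentile, orange the Dlx genes, blue the other 4 genes. Dlx1, Dlx2 and Dlx5 lie at -1.03, -0.59 and -0.82 on the vertical axis, whereas Lhx6, Nxph1, Erbb4 and Maf lie between -0.10 and 0.12. The Erbb4 signals were below the added constant, which draws its differences towards 0.

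Lhx6, the lineage factor of medial eminence-derived interneurons, showed little difference in pair 2 by either probe set. At the brighter one, 1425094_a_at, signals were 1006 (control) and 1209 (knockout) in pair 1 and 190 and 175 in pair 2. The second probe set, 1422262_a_at, had 193 and 160 in pair 1 and 66.3 and 64.3 in pair 2. The probe sets pointed in opposite directions in pair 1, at 0.26 and -0.23, and both lay slightly below 0 in pair 2, at -0.10 and -0.03. Lhx6 thus stood between -0.10 and 0.26 by its brighter probe set, against -1.03 to 0.33 for Dlx1.

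Nxph1, the secreted neurexin ligand, was the member closest to 0 in pair 2 when each gene was taken by its brightest probe set. Its brightest probe set, 1459921_at, had signals of 1102 (control) and 907 (knockout) in pair 1 and of 219 and 217 in pair 2. A second, 1436718_at, had 496 and 397 in pair 1 and 225 and 209 in pair 2. Both were lower on the array labelled knockout in pair 1, at -0.27 and -0.30, and at -0.01 and -0.09 in pair 2. The third, 1438388_at, was dim in pair 2 (26.9 and 26.1) and differed by 0.42 in pair 1. The pair 2 difference of 1459921_at changed sign when all arrays were scaled to 1 trimmed mean.

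Erbb4, the receptor through which neuregulins act on migrating and maturing interneurons, was close to the lower end of every array. Its only probe set had signals of 26.5 and 13.1 in pair 1 and of 17.2 and 14.2 in pair 2. These signals lay at percentiles 19.6, 15, 4 and 2.4 of their arrays, in the order control and knockout of pair 1, then control and knockout of pair 2. Both arrays labelled knockout were below both arrays labelled control, which held for 4.56% of all probe sets and for this 1 of the 16. With differences of -0.37 and -0.09 at such low signals, a difference in Erbb4 was not detectable on these arrays.

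Maf, which acts in somatostatin and parvalbumin interneurons after Lhx6, was covered by 6 probe sets that mostly showed little difference in pair 2. The brightest, 1456060_at, had signals of 1047 (control) and 1082 (knockout) in pair 1 and of 299 and 327 in pair 2, with differences of 0.05 and 0.12. The next, 1447849_s_at, had 1114 and 1403, then 219 and 242, and its suffix marks probes that can match more than 1 gene. The 6 probe sets ranged from -0.08 to 0.28 in pair 2. In pair 1 they ranged from -2.21 to 0.33, with 4 above 0, so they disagreed. The lowest value came from 1447945_at, with signals of 216 and 21.3 in pair 1 and of 53.9 and 57.0 in pair 2. Microglia and macrophages, which also express Maf, had 10 of 12 measured markers lower in pair 2 (48.4% of all genes were), with a list median of -0.19 and summed signals of 5615 and 5312 in pair 1 and 1851 and 1526 in pair 2 (control first). The lowest marker signal on each array was 65 and 42.2 in pair 1 and 48.2 and 38.9 in pair 2, control first. The part of microglia and macrophages in the Maf values was not tested.

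Over the 4 arrays together no member passed limma's test. In limma's fit of knockout against control over all 45037 probe sets, adjusted by Benjamini-Hochberg, 0 of the 16 passed an adjusted p of 0.05, and 0% of all probe sets did. At an unadjusted p under 0.05 limma found 0 of the 16 and 0.0555% of all probe sets. When the replicate number entered as a block, limma again called 0 of the 16 (0% of all), with 0 of the 16 at an unadjusted p under 0.05 against 0.813%. The limma estimates were -0.35 ± 1.78 (SE, n = 2 per group) for Dlx1, -0.39 ± 1.14 for Dlx2, -0.22 ± 1.03 for Dlx5 and -0.72 ± 0.65 for Dlx6, each with an adjusted p of 1. For the brightest probe sets of the other genes they were 0.08 ± 1.44 (Lhx6), -0.14 ± 1.45 (Nxph1), -0.23 ± 0.46 (Erbb4) and 0.08 ± 1.54 (Maf). These errors contain the difference in scale between the pairs, and eBayes took each SE from the mean-variance trend at that brightness. The absence of calls without the block thus does not show that these genes were unchanged. With the block the SE of Dlx1 was 0.29 and that of Dlx6 0.36, and the smallest unadjusted p of limma, 0.081, belonged to the Maf probe set 1447945_at. These SEs were also drawn towards the trend, with 1 residual degree of freedom against 6.08 prior ones. They therefore do not measure how far the pair differences of a single gene lie apart. An exact permutation test of 2 against 2 arrays cannot go below a two-sided p of 0.333. Whether the differences of the pairs differ from each other could not be tested, since each pair holds 1 array per label.

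By direction alone, 12 of the 16 probe sets were lower on the array labelled knockout in pair 2, against 43.6% of all probe sets, and 8 of the 16 were lower in pair 1, against 54.7%. Taken by gene, 7 of 8 were lower in pair 2 (48.4% of all genes) and 4 of 8 in pair 1 (54.1%). Higher in pair 1 and lower in pair 2 were 3 of the 8, namely Dlx1, Dlx5 and Lhx6, against 23.6% of all genes, a share near the background. The median over the 8 genes was -0.07 in pair 1 and -0.18 in pair 2, where the medians of all genes were -0.04 and 0.0057. No gene of the 8 was over 1.5-fold higher in pair 1 or in pair 2, where 8.79% and 0.698% of all genes were. For the 4 Dlx genes alone the medians were 0.07 and -0.70, and for the other 4 genes -0.11 and -0.05.

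**Figure D3:**
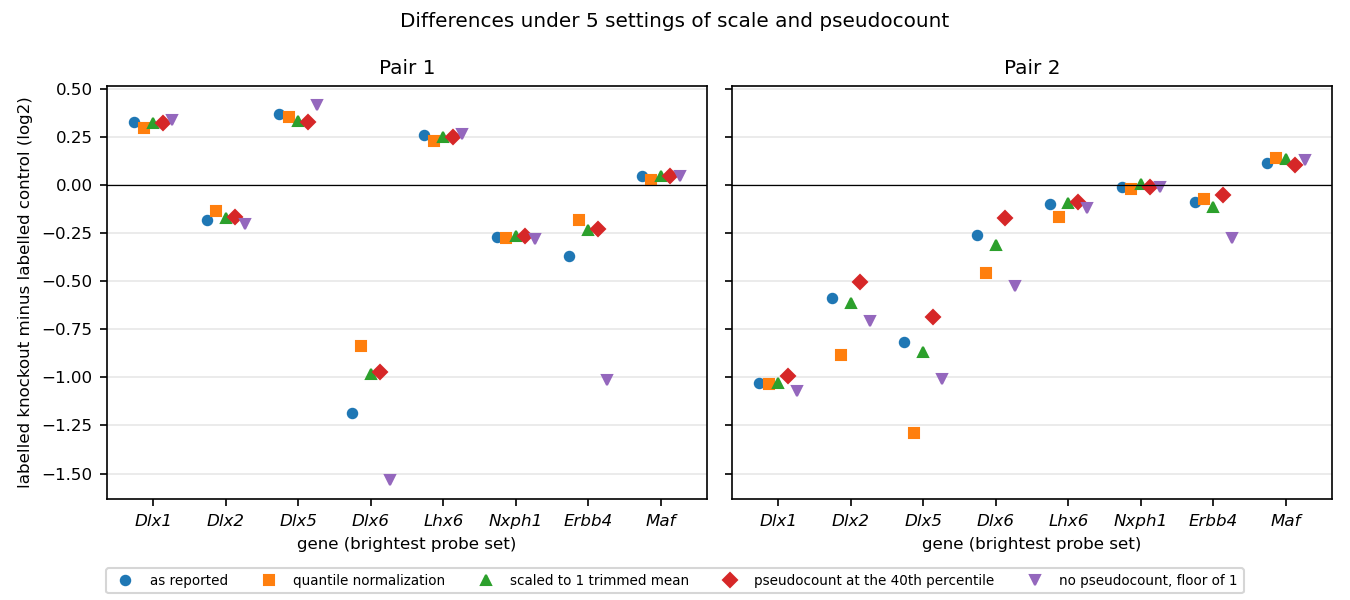
Difference between labels (log2, vertical) of the 8 genes by their brightest probe sets under 5 settings of scale and pseudocount, for pair 1 (left) and pair 2 (right). In pair 2 the Dlx genes lie below 0 under all 5 settings, from -0.17 for Dlx6 to -1.29 for Dlx5.

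The pair 2 pattern held its direction for the Dlx genes under the 5 settings of scale and pseudocount. Dlx1 ranged from -1.07 to -0.995, Dlx2 from -0.88 to -0.50, Dlx5 from -1.29 to -0.69 and Dlx6 from -0.53 to -0.17. With the pseudocount at the 40th percentile Dlx2 fell short of 1.5-fold, which left 2 of the 4. In pair 1 the 4 Dlx genes kept their signs under the 5 settings as well. Another pseudocount or a floor of 1 cannot reverse the order of 2 signals, so those settings could not have changed a sign in either pair. Only quantile normalization and scaling to 1 trimmed mean could, and every setting used the same arrays.

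The genes that define GABAergic cells were compared next. Of 5 genes of GABA synthesis and transport 4 were measured, limma called 0 of them, and all 4 were lower on the array labelled knockout in pair 2 (48.4% of all genes were), with a list median of -0.46. Slc32a1, the vesicular GABA transporter, was at 0.17 in pair 1 and -0.93 in pair 2. Gad1, a GABA-synthesising enzyme, was at 0.25 and -0.68, its paralogue Gad2 at 1.14 and -0.16, and Abat, which degrades GABA, at -0.04 and -0.25. Slc32a1 and Gad1 were thus in the range of the Dlx genes in pair 2, while Gad2 was nearer to Lhx6.

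Markers of interneuron subtypes fell on both sides of 0. All 16 were measured, limma called 0, and medians were 0.15 in pair 1 and -0.07 in pair 2. In pair 2, 10 were lower, 4 of them over 1.5-fold, against 48.4% and 1.55% of all genes. These 4 were Sst (somatostatin) at -0.99, Cck (cholecystokinin, also made by pyramidal neurons) at -1.44 and, named after their values were seen, Npy (neuropeptide Y) at -1.21 and Calb2 (calretinin) at -1.20. The same genes were higher in pair 1, at 0.29, 0.97, 0.999 and 0.16. Sst had signals of 2580 and 3167 in pair 1 and of 503 and 237 in pair 2, a course close to that of Dlx1. Reln, the secreted protein of Cajal-Retzius cells and some interneurons, was at -0.43 and 0.39, and the calcium buffer gene Calb1 at -0.64 and 0.26. Lhx6, which acts upstream of Sst, was at -0.10 in pair 2.

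Other transcription factors of the ganglionic eminences and interneurons were mixed. Of 20 listed genes 15 were measured, limma called 0, and the medians were 0.19 and -0.02. In pair 2, 3 were over 1.5-fold lower and 1 was over 1.5-fold higher, against 1.55% and 0.698% of all genes. Zeb2, which directs interneurons to the cortex, was at 1.63 in pair 1 and -0.65 in pair 2. The others that were lower, named after their values were seen, were Sp8, a factor of dorsal lateral and caudal eminence lineages, at 1.45 and -0.96, and the cholinergic lineage factor Lhx8 at -0.07 and -1.18. Lhx8 had signals of 3.4 and 1.8 in pair 1, where no difference could be read, and of 96.8 and 24.7 in pair 2. Satb1, which acts in maturing somatostatin interneurons, was at 0.27 and 0.59. Nr2f1, a nuclear receptor of caudal eminence and caudal cortex, was at 0.61 and 0.10, and Npas3 at 0.19 and -0.13. Dlx3 and Dlx4, the family members of skin and placenta, also named after their values were seen, differed by -0.53 and 0.05 and by -0.81 and 0.08. Dlx4 had signals of 92.6 and 38.9 in pair 1 and of 129.9 and 139 in pair 2, so neither gene was lower in pair 2 on the array labelled knockout.

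The genes of Erbb4 and Nxph1 partners were set beside them next. All 10 neuregulin and ErbB genes were measured, limma called 0, and medians were -0.37 and 0.02, with 0 over 1.5-fold apart in pair 2 in either direction. The ligand genes Hbegf, Nrg3 and Nrg2 were at 0.24 and -0.38, 0.40 and 0.29, and -0.23 and -0.06. Egfr, a related receptor, was at -0.72 and -0.17. Of 6 neurexophilin and neurexin genes 5 were measured, limma called 0, and medians were -0.28 and -0.09. Nxph3 and Nxph2, paralogues of Nxph1, were higher in pair 2, at 1.49 and 0.75, and lower in pair 1, at -0.68 and -0.72. Nxph3 had signals of 922 and 565 in pair 1 and of 140 and 451 in pair 2, so that its order of labels was opposite in the pairs. The receptor genes Nrxn3 and Nrxn2 were at 0.43 and -0.67 and at 0.25 and -0.33. None of the 5 measured genes was as close to 0 in pair 2 as the brightest Nxph1 probe set. The second Nxph1 probe set, at -0.094, was no closer to 0 than Nxph4, at -0.092, which was named after its value was seen.

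Genes that guide migrating interneurons were compared as well. All 8 were measured and limma called 0. In pair 2, 6 were lower (48.4% of all genes were), 1 of them, Nrp2, over 1.5-fold, with medians of 0.33 in pair 1 and -0.37 in pair 2. Nrp2, a semaphorin receptor by which cortical interneurons avoid the striatum, was at 0.68 and -0.72. Cxcl12, the chemokine that holds interneurons in their migratory streams, was at 0.39 and -0.44, Robo1 at 0.61 and -0.41 and Nrp1 at 0.27 and -0.21. These genes are also expressed by projection neurons or meninges. Of 5 other Maf factors 4 were measured, limma called 0, and in pair 2 they lay near 0 like Maf, with Mafg at -0.11, Mafk at -0.12, Maff at 0.07 and Nrl at -0.05. Their pair 1 values were 0.25, -0.21, -0.51 and -0.59. Over the 62 measured genes of these lists together limma found 0 at an unadjusted p under 0.05, against 0.0555% of all probe sets. When the replicate number was a block limma found 1, Satb1, against 0.813% of all probe sets. After adjustment limma called 0 of the 62 in either fit.

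**Figure D4:**
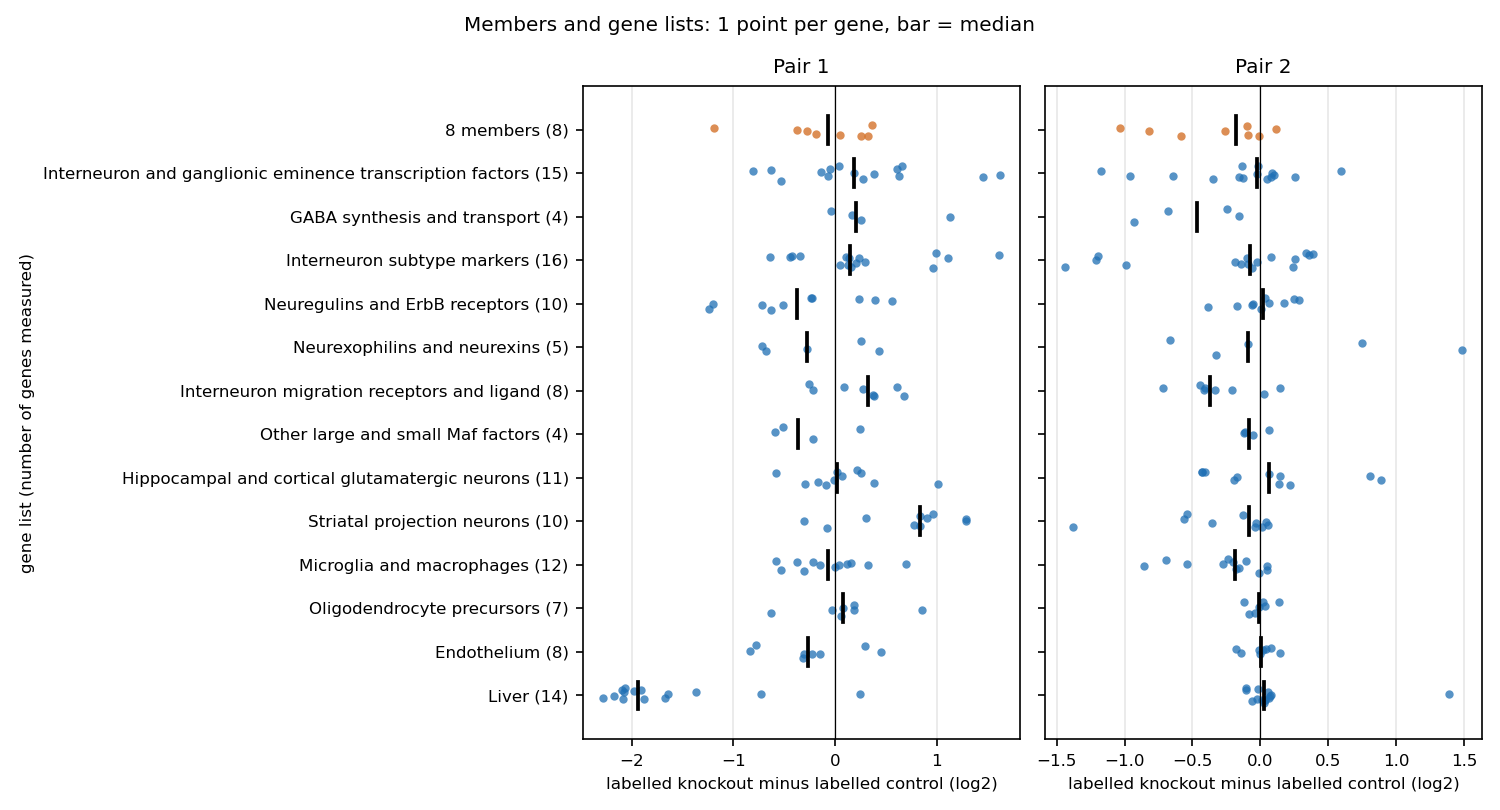
Difference between labels (log2, horizontal) of each measured gene by its brightest probe set, for the 8 genes (orange) and for lists of related genes and of other cell types (blue), with the list median as a bar; pair 1 is on the left and pair 2 on the right, on axes of different range. In pair 2 the median of GABA synthesis and transport is -0.46 and that of the 8 genes -0.18, and in pair 1 the liver median is -1.94.

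Markers of other tissues and cell types were set beside these values. Striatal projection neurons arise from Dlx-expressing progenitors. Of their 10 measured markers, 7 were over 1.5-fold higher on the array labelled knockout in pair 1 (8.79% of all genes), with a list median of 0.84, and 1, Meis2, was over 1.5-fold lower in pair 2, at -1.38, with a list median of -0.08. The summed signal of this list was 3824 and 7317 in pair 1 and 2609 and 1677 in pair 2, control first. Drd2, a defining receptor of striatal neurons, was the lowest of the list on every array. Its signals were 7.9 and 66.3 in pair 1 and 41.7 and 43.8 in pair 2. Glutamatergic neuron markers had medians of 0.02 and 0.07, and 2 of the 11 measured were over 1.5-fold higher in pair 2 (0.698% of all genes). These were the projection neuron factors Fezf2, at -0.58 and 0.81, and Tbr1, at -0.01 and 0.89, the pair 1 value of Tbr1 changing sign under 1 of the 5 settings. Markers of oligodendrocyte precursors had 0.08 and -0.01, the pair 2 value changing sign under 2 of the 5 settings. Liver genes had a median of -1.94 in pair 1, with 13 of 14 over 1.5-fold lower (14% of all genes), and of 0.03 in pair 2. In that list Ttr, made by liver and choroid plexus, was over 1.5-fold higher in pair 2, at 1.39, with signals of 3505 and 9232. Fezf2, Tbr1, Ttr, Meis2 and Drd2 were picked with their values in view. The part of striatal, glutamatergic, choroid plexus, liver or other tissue in the values of the 8 genes was not tested.

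The 5 genes whose differences in both pairs lay nearest to the median of the 8 genes (-0.07 and -0.18) were Hpgd, Eif6, Pgap4, Pold2 and Mrpl3, at Euclidean distances of 0.002 to 0.0049. Of 12575 other genes 544 lay within 0.1 of that point, so it marks no small group. Near Dlx1 the space was emptier, with 3 genes within 0.1: Sst, Ptgds (prostaglandin D synthase, made by meninges) and Plcxd3. Dlx6 had 4, the nearest being Car3 and Baiap3, and Dlx5 had 9, the nearest being Ankrd29 and Rbfox3. Few genes differed that much in a pair, so the low count does not set Dlx1 apart. Around Maf there were 958. This count by gene was chosen after the values were seen.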

How the data were processed

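Signal intensities of 45037 probe sets on 4 arrays were deposited by the authors on a linear scale. Per the submitters' processing notes they come from MAS5; no version or scaling target is stated. The platform annotation named the probe sets (34945 with 1 gene symbol, 932 with several, 9160 with none); all 16 member probe sets matched RefSeq by Entrez ID. Signals were transformed as log2(signal + 32.56), and the authors' scaling was kept. Groups were compared with limma 3.58.1 in R 4.3.3 (lmFit, eBayes with a mean-variance trend, Benjamini-Hochberg over all probe sets, threshold 0.05). Knockout was set against control on all 4 arrays without a covariate. On simulated data run first, recovery of changes was required only of the fit with the replicate number as a block. The fit without the block was checked there only for the error of its estimates. No low-signal filter was used; 13 of the 16 probe sets, from 6 of the 8 genes, had a mean above the 40th percentile, and Dlx6 and Erbb4 had none. Each gene was represented by its probe set with the highest mean. Named were all member probe sets, the 4 genes of each related list with the highest mean, and the 5 genes nearest in pattern; any other gene was named with its values already known. Listed genes without a singly named probe set were not analysed here. After subtraction of group means, arrays of the same number correlated at 0.837 over probe sets above the 40th percentile; the labels tie the numbers to no litter or day. The scale of the values coincides with the number, so values are given within pairs. The number of arrays limits the precision. The genes and lists were chosen with earlier results of these data known.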

Additional observations from a re-analysis of the deposited data

How the results depend on the processing

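Limma called 0 probe sets in the fit as designed, with the replicate number as a block (pairing the arrays by number), and under the other alternatives: quantile normalization, scaling to 1 trimmed mean, a pseudocount at the 40th percentile, a floor of 1, a filter at the 40th percentile, the brightest probe set per gene, eBayes without trend or robust, and leaving out each array in turn (0 to 0). With an array left out, the lone array of its group is assumed to vary like the others. The median over the 8 genes in pair 1 was -0.07 and moved to 0.046 over the member probe sets above the 40th percentile. In pair 2 the median of -0.18 became -0.31 with quantile normalization, -0.40 with a floor of 1, -0.075 over all 16 probe sets and -0.065 over those above the 40th percentile. Taken by gene, the 6 genes above that percentile had medians of 0.15 and -0.34. The changes over probe sets weight genes by their number of probe sets, 6 for Maf; the cause of the others was not tested. For single genes 62 alternative values moved by less than the SD between the pairs, and 2 moved by more, namely Erbb4 in pair 1 (-1.02 with a floor of 1) and Dlx2 in pair 2 (-0.88 with quantile normalization). Low signal limits Erbb4, and Dlx6 in pair 2.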
